A study of Mus musculus with 24 samples.

Results

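The genes described here are those named Zfp with a number, the mouse symbol for zinc finger proteins. They were taken from the platform annotation of both slide types wherever a probe carries exactly 1 symbol that begins with Zfp and a digit, leaving out symbols that begin with Zfp36. This gave 95 of the 6970 genes measured, of which 45 were on slide type 1, 60 on slide type 2 and 10 on both. They were read by 49 and 68 probes, 117 in all. The rule uses the symbol alone and no measured value, although the family was taken up with earlier results of these data known. All 95 were found in RefSeq by gene ID under the same symbol, 94 as protein-coding genes and Zfp783 as a long non-coding RNA.

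Most proteins of this name carry tandem C2H2 zinc fingers, small folds held by a zinc ion in which each finger contacts a few bases of DNA. Many of them also carry a KRAB domain, which recruits the corepressor Trim28 and with it histone methyltransferases and heterochromatin proteins, and in the early embryo these complexes silence retroelements and guard imprinted loci. The name is not a guarantee of that fold or role: Zfp185 is a LIM domain protein of the actin cytoskeleton, Zfp622 and Zfp593 act in ribosome assembly, and Zfp598 is a ubiquitin ligase that senses stalled ribosomes.

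The arrays compared RNA of cultured mouse embryos that had been held at 43 °C for 15 min and then returned to 37 °C for 1 h (heat-shocked) with RNA of embryos that stayed at 37 °C (control). Both RNAs were hybridised to the same array in separate channels. The sources used here give no strain, stage or number of pooled embryos, and nothing in them says that the treatments came from separate litters, so p-values measure only the spread between these 3 numbered treatments. Each treatment number had 4 arrays on each of 2 slide types, 24 arrays in all, with the heat-shocked RNA in channel 1 on some and in channel 2 on others.

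The values are log ratios with neither base nor numerator stated, so they are given in log units, in which 1 unit stands for 2-fold in base 2 or 2.72-fold in natural log. A positive value would mean more transcript after heat shock if the ratio is channel 1 over channel 2. That direction is not settled. The numerator is unknown, and arrays of the same channel order on slide type 2 correlated as low as r = −0.34 over all probes (the lowest on slide type 1 was 0.29). The inducible chaperone genes Hsph1 (2.28 ± 0.50 on slide type 1) and Hspb1 (2.23 ± 0.05 on slide type 2; SD, n = 3 treatments) lay on the positive side. With the sign turned, every positive count below becomes the negative one: 4 positive and 3 negative members on slide type 1, and 19 positive and 11 negative on slide type 2. Because the values used here are ratios, transcript levels could not be compared between genes and the tissue could not be checked by marker levels. Of cell type markers, 1 of 3 neural genes passed on slide type 1 (Tubb3, −0.21), and none of the 3 yolk sac endoderm, 3 trophoblast, 1 erythroid and 1 mesenchyme genes did. On slide type 2 all 3 mesenchyme genes passed on the negative side (Col1a1, Col1a2 and Col3a1, −0.60 to −0.35), as did Apoc2 of yolk sac endoderm (−0.26) and Krt18 of trophoblast (−0.19), and 0 of 4 erythroid genes passed. No heart muscle marker was measured. The part of cell composition in the values below was not tested, and in whole embryos fewer cells of a type and less RNA per cell cannot be told apart.

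Promoters are shown for 4 members, to set their letters beside the values that follow. A promoter here is the stretch from 250 bases before to 50 after the annotated start on build GRCm38.p6. It was found for 77 of the 95 members, and the first listed start was used where there were several. The letters searched on both strands were GAANNTTC and TTCNNGAA (paired inverted GAA units, of which heat shock elements are built), GGGCGG (the GC box) and CCAAT. Their matches are in capitals. Zfp12 is shown as the largest value of the family, Zfp622 and Zfp809 as positive members that hold GAANNTTC, and Zfp687 as a negative member that holds it. The last 3 were chosen after these matches and their values were seen, so their matches support nothing. A longer motif, of the factor NRF1, was also searched and is not reported.
Zfp12, chr5:143234913-143235212, strand +: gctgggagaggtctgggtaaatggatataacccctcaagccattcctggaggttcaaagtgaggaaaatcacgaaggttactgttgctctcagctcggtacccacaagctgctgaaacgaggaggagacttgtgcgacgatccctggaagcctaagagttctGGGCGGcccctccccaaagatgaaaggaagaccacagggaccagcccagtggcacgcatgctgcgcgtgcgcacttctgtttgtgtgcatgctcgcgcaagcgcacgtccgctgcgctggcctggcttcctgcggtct
Zfp622, chr15:25984116-25984415, strand +: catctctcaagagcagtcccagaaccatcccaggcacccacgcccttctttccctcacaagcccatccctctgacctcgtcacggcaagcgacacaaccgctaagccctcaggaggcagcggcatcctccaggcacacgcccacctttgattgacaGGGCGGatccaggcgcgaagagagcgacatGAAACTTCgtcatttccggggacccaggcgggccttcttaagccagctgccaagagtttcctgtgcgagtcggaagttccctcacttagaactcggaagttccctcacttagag
Zfp809, chr9:22225453-22225752, strand +: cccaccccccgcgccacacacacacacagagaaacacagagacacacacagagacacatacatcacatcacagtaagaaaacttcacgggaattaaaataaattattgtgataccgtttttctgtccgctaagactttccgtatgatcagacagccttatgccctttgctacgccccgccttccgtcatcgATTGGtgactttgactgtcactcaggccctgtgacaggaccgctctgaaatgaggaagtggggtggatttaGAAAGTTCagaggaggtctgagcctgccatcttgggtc
Zfp687, chr3:95015408-95015707, strand -: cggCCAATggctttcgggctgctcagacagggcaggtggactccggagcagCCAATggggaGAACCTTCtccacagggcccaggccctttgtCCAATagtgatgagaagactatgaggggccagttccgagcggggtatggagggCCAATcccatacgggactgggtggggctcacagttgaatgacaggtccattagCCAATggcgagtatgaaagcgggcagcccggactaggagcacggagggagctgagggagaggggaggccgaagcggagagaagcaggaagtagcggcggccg
The Zfp12 stretch has 1 GC box and neither of the GAA pairs. The stretch of Zfp687 has 5 CCAAT matches. Of the 77 member promoters, 7 (9.09%) hold GAANNTTC, against 7.95% of 27025 promoters taken 1 per gene and 5.42% of the 5644 that belong to genes with a probe on either slide type. TTCNNGAA was found in 3 (3.9%), against 8.40% and 6.93%. GGGCGG was found in 43 (55.8%), against 35.9% and 65.5%, and CCAAT in 35 (45.5%), against 37.9% and 39.2%. These matches describe letters in a window and are not binding sites. Of the 3 passing members that hold GAANNTTC, Zfp622 and Zfp809 lay on the positive side and Zfp687 on the negative side.

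On slide type 1 the shares of the family on each side were close to those of all genes, with 7 calls among its members. Of 45 members, 3 positive ones (6.67%) and 4 negative ones (8.89%) passed the test, at an adjusted p under 0.05 from limma with Benjamini-Hochberg adjustment over all genes of the slide type. Over all 3838 genes, 5.73% were positive and passed, and 5.65% were negative and passed. The median member had −0.03 and the median gene −0.04, and 33.3% of members lay above 0 against 32.9% of all genes. Members ran from −0.31 to 0.39, and 7 of 45 (15.6%) were over 0.2 units in size, against 12.8% of all genes. None of the 45 members exceeded 0.5 units, which 1.93% of all genes did.

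The 3 positive members of slide type 1 were Zfp790, Zfp809 and Zfp507. Zfp790 had 0.39, 0.38 and 0.41 in treatments 1, 2 and 3, a mean of 0.39 ± 0.01 (SD, n = 3; adjusted p = 0.00121). It was the only passing member of this slide type on the same side of 0 on all 12 arrays, from 0.05 to 0.74. Over all genes 6.25% passed and did so. Among those that passed, the shares were 14.3% of members and 54.9% of all genes. The size of Zfp790 would be 1.31-fold in base 2 or 1.48-fold in natural log. Zfp809, a KRAB protein that silences retroviral elements in embryonic cells, had 0.35, 0.38 and 0.29, a mean of 0.34 ± 0.05 (adjusted p = 0.00337). Its 2 channel orders differed, with 0.67 for the arrays that carried heat-shocked RNA in channel 1 and 0.0033 for the others. Zfp507 had 0.30, 0.26 and 0.25 (mean 0.27 ± 0.03, adjusted p = 0.0103), and did not pass without treatment 1. In each of these genes the 3 treatments lay close together and above 0.

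The 4 negative members of slide type 1 had SDs of 0.08 to 0.15 over treatments, against 0.01 to 0.05 for the 3 positive ones. Zfp932, a KRAB protein known to bind endogenous retroviruses, had −0.46, −0.31 and −0.16 (mean −0.31 ± 0.15, adjusted p = 0.0150). Zfp94 had −0.39, −0.15 and −0.23 (mean −0.26 ± 0.12, adjusted p = 0.0272). Zfp943 had −0.38, −0.25 and −0.08 (mean −0.24 ± 0.15, adjusted p = 0.0472). In these 3 genes treatment 1 gave the lowest value. Zfp219 had −0.16, −0.19 and −0.31 (mean −0.22 ± 0.08, adjusted p = 0.0359). None of the 4 calls held without treatment 1 or without centring of the arrays, and centred on probes with 1 symbol only, 3 positive and 1 negative member passed.

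**Figure D1:**
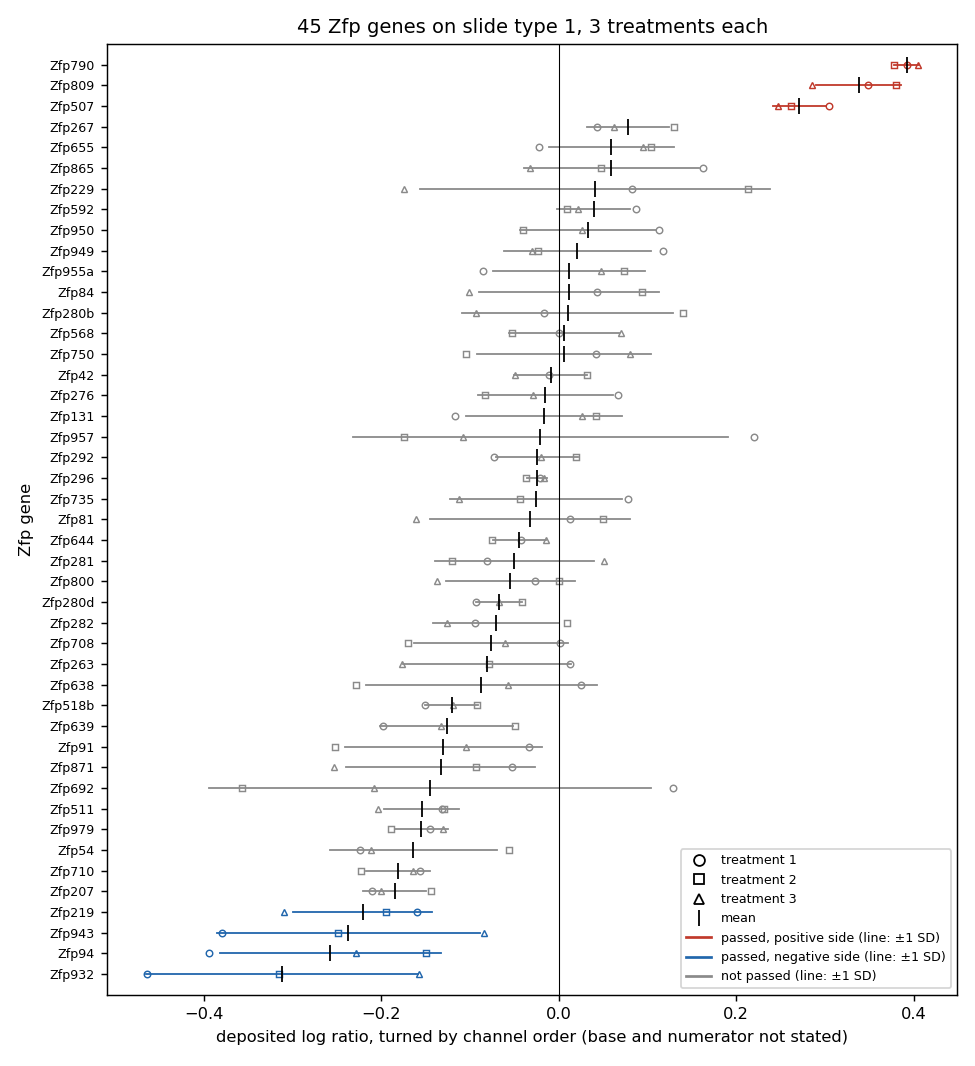
Log ratios (x axis, deposited log units with base and numerator not stated) of the 45 Zfp genes of slide type 1, ordered by mean; open symbols are the 3 treatments, the tick is the mean, the line spans ±1 SD and colour marks the side of those that passed. Zfp790, Zfp809 and Zfp507 stand above the rest, at 0.27 to 0.39, and the 4 passing negative members lie between −0.31 and −0.22.

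The 38 members of slide type 1 that did not pass ran from −0.18 (Zfp207) to 0.08 (Zfp267). The median SD over treatments was 0.08 for members and 0.09 for all genes. The treatments lay farthest apart for Zfp692, at 0.13, −0.36 and −0.21. Several of these members have known roles in embryos. Zfp42, the pluripotency marker Rex1, had −0.01, 0.03 and −0.05 in the 3 treatments. Zfp568, a KRAB repressor needed in gastrulating embryos that silences a placental transcript of Igf2, had 0.0009, −0.05 and 0.07. Both lie on either side of 0, within the spread between treatments. Zfp292 had a mean of −0.02 ± 0.05 and Zfp644, a partner of the histone methyltransferases Ehmt1 and Ehmt2, −0.04 ± 0.03. Zfp91, a ubiquitin ligase, had −0.03, −0.25 and −0.10 over 3 probes, a mean of −0.13 ± 0.11 (adjusted p = 0.227). The smallest means were those of Zfp750 (0.0060), Zfp568 (0.0062), Zfp42 (−0.0091), Zfp280b (0.0104) and Zfp84 (0.0119).

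On slide type 2 many more genes passed, in the family and outside it. Of 60 members, 11 positive (18.3%) and 19 negative (31.7%) ones passed, against 18.5% and 31.9% of all 4075 genes. Together 50% of members and 50.4% of all genes passed. The median member had −0.06 and the median gene −0.05, with 40% of members and 42.1% of genes above 0. The shares over 0.2 units were 36.7% and 34.2%. The split between the sides moved with the centring: centred on probes with 1 symbol only, 17 members were positive and 12 negative, and 30.7% and 21.1% of all genes were. That centring brought the medians to 0.02 for members and 0.03 for all genes, a shift that is the same for every gene of an array by construction.

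**Figure D2:**
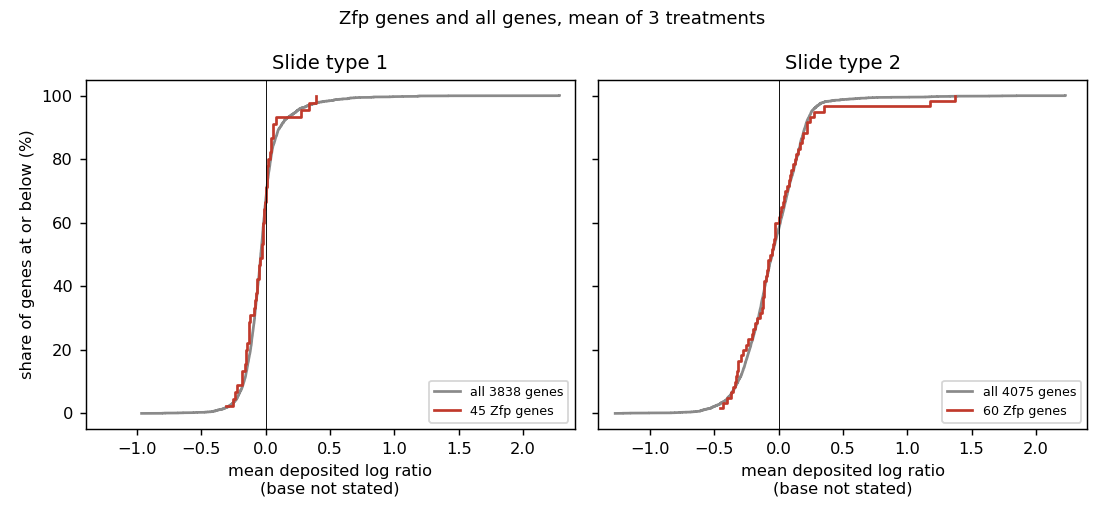
Cumulative share of genes (y axis, %) at or below each mean log ratio (x axis, deposited log units, mean of 3 treatments) for the Zfp genes (red) and all genes (grey) of each slide type. The curves run together through medians of −0.03 and −0.04 on slide type 1 and −0.06 and −0.05 on slide type 2, and part at the right end of slide type 2, where 2 Zfp genes lie above 1 unit.

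Zfp12 and Zfp9, each on 1 probe of slide type 2, stood apart from every other member. Zfp12 had 1.35, 1.45 and 1.31 in treatments 1, 2 and 3, a mean of 1.37 ± 0.07 (SD, n = 3; adjusted p = 2.08e-11), equal to 2.59-fold in base 2 or 3.94-fold in natural log. Zfp9 had 1.21, 1.18 and 1.13, a mean of 1.17 ± 0.04 (adjusted p = 1.32e-10), or 2.26-fold and 3.23-fold. The third highest member, Zfp296, had a mean of 0.35, so no value of the family fell between 0.35 and 1.17. Among the 4075 genes of the slide type Zfp12 ranked 9 from the top and Zfp9 ranked 16. The same 2 members were the only ones over 0.5 units (3.33%, against 3.44% of all genes). Over 1 unit in size were 2 of 60 members (3.33%) and 27 of all genes (0.663%), a description of 2 genes on 1 probe each. No probe of a member lay below −1 unit.

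Both outliers were positive on all 12 arrays of slide type 2. Zfp12 ran from 0.62 to 2.30 over arrays, with means of 1.66 for heat-shocked RNA in channel 1 and 1.08 for the other order. In treatment 2 the channel orders stood farthest apart for Zfp12, with 2.30 and 2.23 in channel 1 and 0.62 and 0.64 in channel 2. In treatment 1 they overlapped, at 1.44 and 1.06 against 1.32 and 1.60. Zfp9 ran from 0.51 to 2.03, with 1.43 and 0.92 in the channel orders. In treatment 2 it had 1.63 and 2.03 in channel 1 and 0.54 and 0.51 in channel 2. The same arrays were thus high and low for both genes in treatment 2. Zfp12 passed under each of the 14 alternatives of processing tried for single genes apart from turning the sign. Zfp9 passed under 13 of them, and with heat-shocked RNA in channel 2 only it had 0.92 (adjusted p = 0.0672).

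Of the 7680 probes of slide type 2, 80 (1.04%) lay above 1 unit and 52 of those carry no gene symbol. Among the 4935 probes with 1 symbol 24 (0.486%) lay there, and the probes of Zfp12 and Zfp9 are 2 of them. On slide type 1 no probe of a member lay above 1 unit, where 77 of 7680 probes (1%) and 0.463% of the probes with 1 symbol did. Neither outlier was measured on slide type 1, so neither has a second probe or a second slide type behind it.

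**Figure D3:**
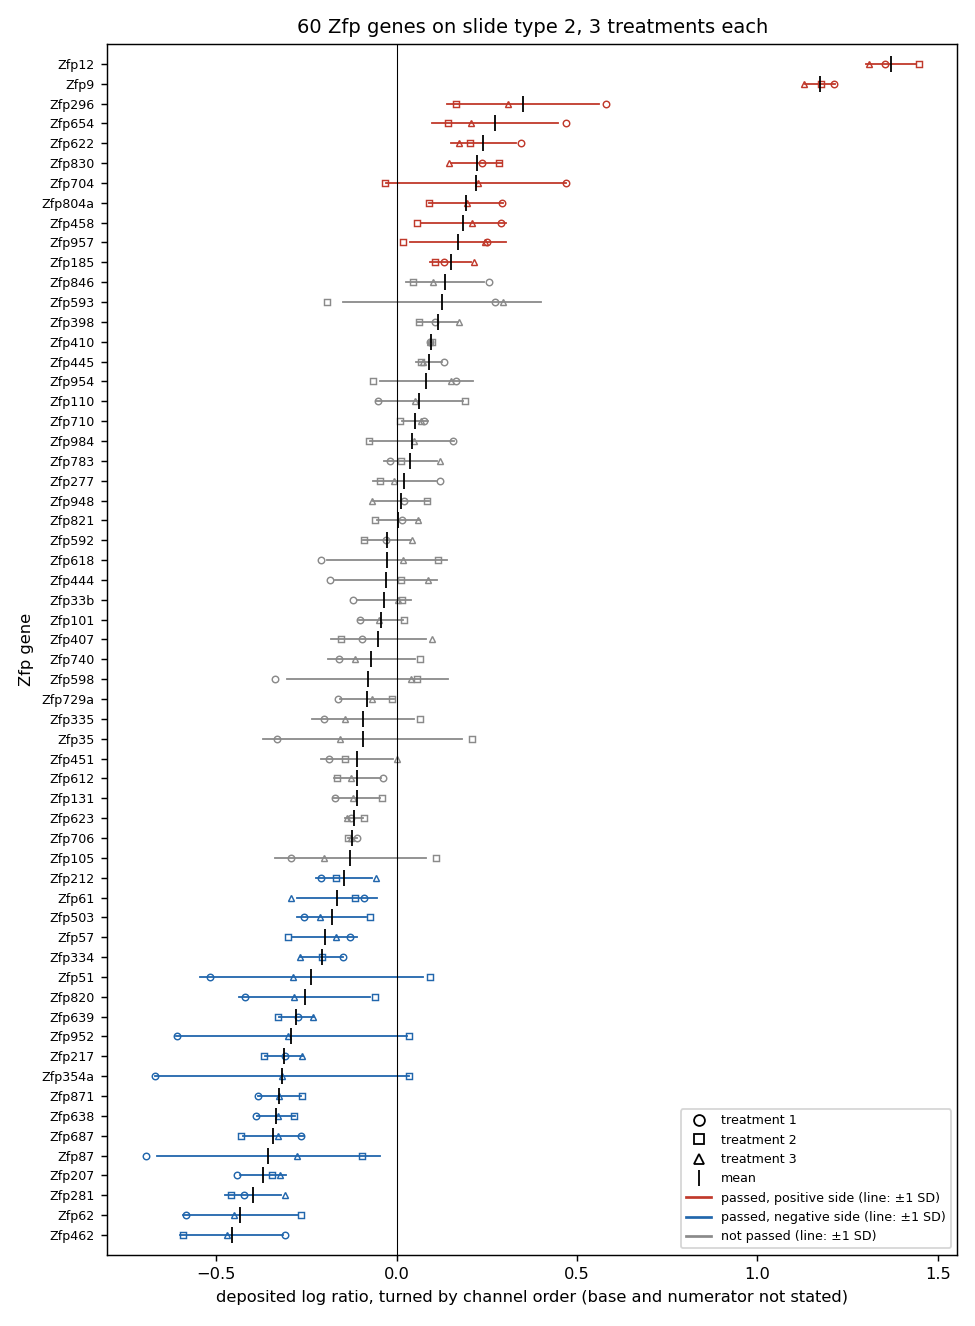
Log ratios (x axis, deposited log units with base and numerator not stated) of the 60 Zfp genes of slide type 2, ordered by mean; open symbols are the 3 treatments, the tick is the mean, the line spans ±1 SD and colour marks the side of those that passed. Zfp12 (1.37) and Zfp9 (1.17) are separated from the next member, Zfp296 (0.35), while 58 members lie between −0.46 and 0.35.

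The other positive members of slide type 2 were small and several rested on treatment 1. Zfp296, a zinc finger protein of pluripotent cells, had 0.58, 0.16 and 0.31 (mean 0.35 ± 0.21, adjusted p = 0.000863). Zfp654 had 0.47, 0.14 and 0.21 (mean 0.27 ± 0.17). Zfp622, a ribosome assembly factor, had 0.34, 0.20 and 0.17 (mean 0.24 ± 0.09). Treatment 1 was the highest in each of these. Zfp830 had 0.24, 0.28 and 0.14 (mean 0.22 ± 0.07). Zfp804a (0.19 ± 0.10), Zfp458 (0.18 ± 0.12), Zfp957 (0.17 ± 0.13) and the cytoskeletal Zfp185 (0.15 ± 0.06) completed those positive in every treatment. Of these genes, Zfp654, Zfp804a, Zfp957 and Zfp185 lay below 0 with heat-shocked RNA in channel 1. Apart from Zfp12 and Zfp9, no positive member passed with a single channel order or without centring. Without treatment 1, 4 positive members passed instead of 11 (of all genes 7.19% instead of 18.5%), and without treatment 3, 7 did (9.33% of all genes).

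The largest negative members of slide type 2 lay on the same side in all 3 treatments. Zfp462, a large nuclear zinc finger protein linked to heterochromatin, had −0.31, −0.59 and −0.47, a mean of −0.46 ± 0.14 (adjusted p = 3.37e-05), 1.37-fold in base 2 or 1.58-fold in natural log. Zfp62 had −0.59, −0.27 and −0.45 (mean −0.43 ± 0.16, adjusted p = 7.17e-05). Zfp281, a transcription factor of pluripotent cells that binds GC-rich promoters, had −0.42, −0.46 and −0.31 (mean −0.40 ± 0.08, adjusted p = 6.02e-05). No treatment came within 0.2 units of 0 in these 3 genes, but each treatment value averages both channel orders. With heat-shocked RNA in channel 1 and in channel 2, Zfp462 had −0.37 and −0.54, Zfp62 −0.12 and −0.75, and Zfp281 −0.06 and −0.73. Zfp207, known as BuGZ for its role in spindle assembly, had −0.44, −0.35 and −0.32 (mean −0.37 ± 0.06, adjusted p = 0.000104). Zfp687 had −0.26, −0.43 and −0.33 (mean −0.34 ± 0.08) and was the only passing negative member below 0 on all 12 arrays. With Zfp12 and Zfp9, 3 members passed with all 12 arrays on one side, where 3.09% of all genes did. Among those that passed, the shares were 10% of members and 6.14% of all genes. Zfp638, a nuclear protein that helps silence unintegrated retroviral DNA, had −0.39, −0.29 and −0.33 (mean −0.33 ± 0.05). Zfp871 had −0.38, −0.26 and −0.33 (mean −0.33 ± 0.06). None of these negative genes passed with a single channel order, or when the arrays were left uncentred.

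Treatments disagreed more for another group of negative members. Zfp87 had −0.70, −0.09 and −0.28 (mean −0.36 ± 0.31, adjusted p = 0.00268). Zfp354a, a KRAB protein first found in kidney, had −0.67, 0.03 and −0.32 (mean −0.32 ± 0.35, adjusted p = 0.00880), and Zfp952 had −0.61, 0.03 and −0.30. Zfp51 had −0.52, 0.09 and −0.29, and on the positive side Zfp704 had 0.47, −0.03 and 0.22. In the last 4 genes treatment 2 lay on the other side of 0, although each passed, since limma moderates the spread of a gene with that of all genes. None of these 5 calls held without treatment 1. Of the 30 passing members of slide type 2, 4 had 1 treatment on the other side, against 40 of all 2052 passing genes. These 4 genes with disagreeing treatments were named after their values were seen.

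Smaller negative members with known roles included Zfp217, a corepressor amplified in tumours, at −0.31 ± 0.05 (adjusted p = 0.000405). Zfp57, the KRAB protein that protects imprints in the embryo, had −0.13, −0.30 and −0.17 (mean −0.20 ± 0.09, adjusted p = 0.0107), with 0.11 in one channel order and −0.51 in the other. Zfp503, a developmental corepressor, had −0.18 ± 0.10 and Zfp639 −0.28 ± 0.05. The ribosome factor Zfp593 did not pass, with 0.27, −0.19 and 0.29. Zfp451, a SUMO ligase, had −0.11 ± 0.10, Zfp706 −0.12 ± 0.01, Zfp335, a factor of neural progenitors, −0.09 ± 0.14, and Zfp110, which interacts with the neurotrophin receptor p75, 0.06 ± 0.12, none of them passing. The 30 members that did not pass ran from −0.13 (Zfp105) to 0.13 (Zfp846). The median SD over treatments was 0.09 for members and 0.09 for all genes, from 0.0039 (Zfp410) to 0.35 (Zfp354a). The stalled-ribosome sensor Zfp598 had −0.34, 0.06 and 0.04, and the imprint-guarding Zfp445 0.13, 0.07 and 0.07, as the mean of 2 probes on opposite sides of 0. The smallest means on slide type 2 were those of Zfp821 (0.0043), Zfp948 (0.0123), Zfp277 (0.0215), Zfp592 (−0.03) and Zfp618 (−0.03).

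Channel orders often lay on opposite sides of 0, in the family as in all genes. On slide type 1, 20 of 45 members (44.4%) lay on the same side in both channel orders, against 43.2% of all genes, and all 7 passing members did (98.2% of all passing genes). On slide type 2, 28 of 60 members (46.7%) did, against 42.9% of all genes, and 20 of the 30 that passed (66.7%), against 61.9% of all passing genes. The 10 passing members with channel orders on opposite sides include Zfp654, with −0.21 in channel 1 and 0.76 in channel 2, and Zfp207, with 0.0066 and −0.75. Across members the orders correlated at r = −0.04 on slide type 1 and 0.26 on slide type 2 (all genes 0.13 and −0.04), a description over genes that share arrays. With one channel order alone on slide type 2, 2 members passed in the order with heat-shocked RNA in channel 1 and 1 in the other order, where 1.23% and 0.589% of all genes did. On slide type 1, 6 positive and 1 negative member passed with channel 1 alone, against 10.6% and 11.2% of all genes. With channel 2 alone 0 and 2 did, against 1.8% and 3.26%. The part of the channel order in the calls was not tested.

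**Figure D4:**
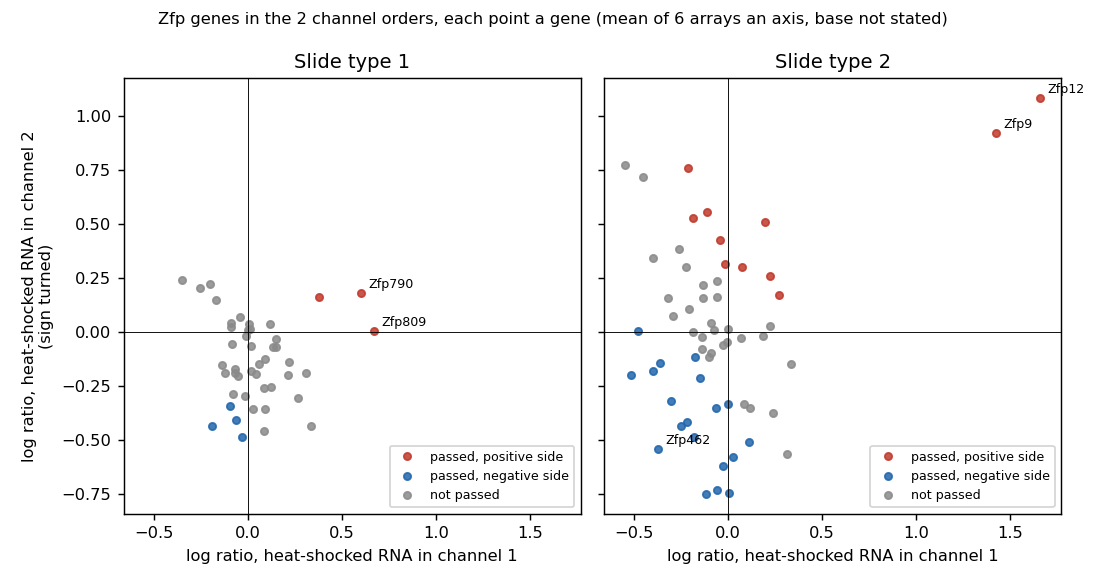
Mean log ratio of each Zfp gene over arrays that carried heat-shocked RNA in channel 1 (x axis, deposited log units) against the mean over the other arrays (y axis, sign turned), 6 arrays an axis, coloured by side for those that passed. Zfp12 (1.66 and 1.08) and Zfp9 (1.43 and 0.92) lie high on both axes, while members such as Zfp654 (−0.21 and 0.76) passed with the channel orders on opposite sides of 0.

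The 10 members measured on both slide types fell on the same side in 6 cases (60%), close to the 61.0% of all 943 genes on both. Their means correlated at r = 0.43 (all 943 genes 0.28), a description over genes whose values come from the same 3 treatment numbers. No member passed on both slide types, 7 passed on slide type 2 only and 3 on neither, where 8.59%, 45.2% and 43.3% of the 943 genes did. The size was larger on slide type 2 for 8 of the 10, against 75.8% of all genes. Zfp207 lay on the negative side in every treatment of both, at −0.21, −0.14 and −0.20 on slide type 1 (adjusted p = 0.0570). Zfp871 had −0.05, −0.09 and −0.25 there, and Zfp639 −0.20, −0.05 and −0.13. These 3 genes had the same side in all 6 treatment values, each of which averages both channel orders. With heat-shocked RNA in channel 1, slide types 1 and 2 gave Zfp207 0.09 and 0.0066, Zfp871 0.09 and −0.03, and Zfp639 −0.05 and 0.03. In channel 2 the same genes had −0.46 and −0.75, −0.36 and −0.62, and −0.20 and −0.58. For slide types 1 and 2, Zfp131, a BTB zinc finger factor, had −0.02 ± 0.09 and −0.11 ± 0.07, and Zfp592 0.04 ± 0.04 and −0.03 ± 0.07, neither passing on either.

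The test of the difference between slide types passed for 4 of the 10 (40%), against 22.1% of the 943 genes. Zfp281 had −0.08, −0.12 and 0.05 on slide type 1, below its values on slide type 2 by size, with a difference of −0.35 ± 0.08 (moderated SE, slide type 2 minus slide type 1; adjusted p = 0.00763). Zfp638 had 0.03, −0.23 and −0.06 on slide type 1 and a difference of −0.25 ± 0.08 (adjusted p = 0.0456). Zfp296 had −0.02, −0.04 and −0.02 on slide type 1 and a difference of 0.38 ± 0.10 (adjusted p = 0.0167). Zfp710 had −0.16, −0.22 and −0.16 on slide type 1 and 0.08, 0.01 and 0.07 on slide type 2, a difference of 0.23 ± 0.07 (adjusted p = 0.0308). The 3 values of each slide type did not overlap in any of the 4. Zfp957 differed by 0.19 ± 0.11 (adjusted p = 0.184), with overlapping treatments. This test leaves the treatments unpaired. With the treatment number as a replicate block 3 of the 4 passed (25.5% of all genes), and Zfp638 did not (adjusted p = 0.0547). Without treatment 1 none of the 4 passed (7.64% of all genes), and without centring none did (3.82%). The slide types carry different probes, and their part in these differences was not tested.

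**Figure D5:**
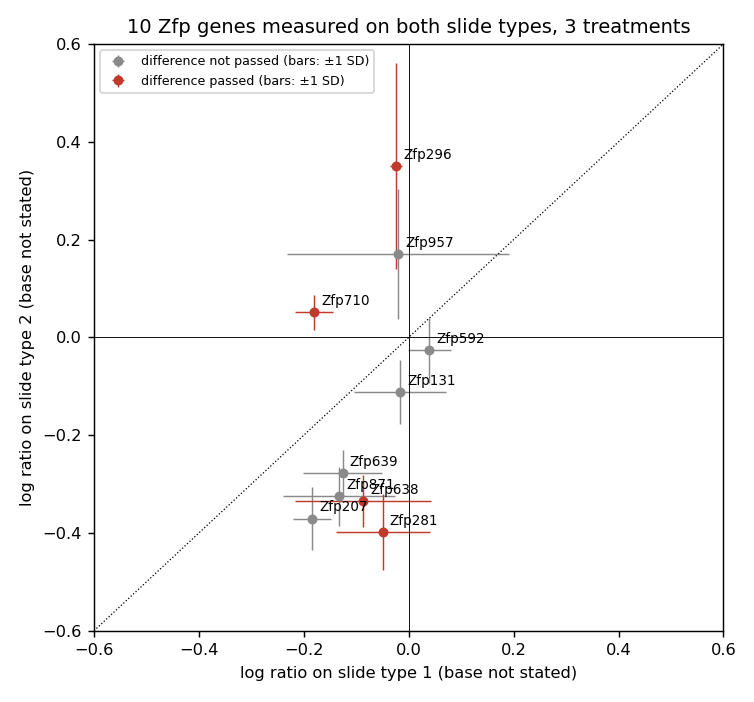
Mean log ratio on slide type 1 (x axis) against slide type 2 (y axis), in deposited log units, of the 10 Zfp genes on both; bars are ±1 SD over 3 treatments, the dotted line marks equal values and red marks a difference that passed. Zfp281 and Zfp638 lie below the line, Zfp710 and Zfp296 above it.

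Probes of one gene could disagree. Over both slide types 11 gene values averaged several probes, and in 7 of them the probes lay on opposite sides of 0, with gaps of 0.0012 to 0.54. Zfp948 had the widest gap, with 1 probe at 0.28 and the other at −0.26, each passing in the fit of single probes (adjusted p = 0.00545 and 0.00874), so its gene mean of 0.01 averages opposite values. Zfp445 had 1 probe that passed at 0.28 (adjusted p = 0.00351) and 1 at −0.10, and Zfp110 had 1 that passed at 0.22 (adjusted p = 0.00871) and 1 at −0.09. Zfp706 had 1 that passed at −0.25 (adjusted p = 0.00538) and 1 at −0.0010. None of these 3 genes passed on the mean of its probes. In that fit 3 member probes of slide type 1 were positive and 4 negative (over all probes 11.0% and 5.09%), and 14 and 19 on slide type 2 (28.9% and 24.4%).

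Zfp genes often lie in rows of related copies. By the order of protein-coding genes in RefSeq, 25 members fell into 9 groups in which neighbours are separated by at most 5 others. Related copies can share probe sequence, and probe sequences were not used here, so values of neighbours may not be independent. The longest group held Zfp54, Zfp51, Zfp948, Zfp229, Zfp820 and Zfp943, with 3 of 6 values passing, all negative, in a range of −0.25 to 0.04. Zfp61 and Zfp94 both passed on the negative side, on different slide types. In the group of Zfp84, Zfp790 and Zfp568 only Zfp790 passed, with the others at 0.0119 and 0.0062. On slide type 2, 6 of 13 values in such groups passed (1 positive and 5 negative), and 24 of 47 outside them (10 and 14), where 18.5% and 31.9% of all genes did. On slide type 1, 1 positive and 2 negative of 12 values in groups passed, and 2 and 2 of 33 outside them, where 5.73% and 5.65% of all genes did. The difference between values in and outside groups was not tested.

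The corepressors that KRAB zinc finger proteins act through were set beside the family. Of 19 measured on slide type 1, 0 positive and 3 negative genes passed (5.73% and 5.65% of all genes), with a median of −0.04. Of 18 on slide type 2, 2 positive and 13 negative genes passed, where 18.5% and 31.9% of all genes did. The median was −0.22 against −0.05 for all genes. Of those that passed on slide type 2, Rbbp7, Ehmt2, Hdac1, Rbbp4, Chd4, Setdb1 and Gatad2b had channel orders on opposite sides of 0. The rest did not. Trim28, the scaffold to which KRAB domains bind, passed on slide type 2 at −0.34 (adjusted p = 0.000683) and lay at −0.13 on slide type 1 (adjusted p = 0.214). With heat-shocked RNA in channel 1 and in channel 2, Trim28 had −0.01 and −0.67 on slide type 2, and 0.06 and −0.33 on slide type 1. Cbx5, the heterochromatin protein HP1α, had −0.36 on slide type 2 and 0.15, not passing, on slide type 1. The SUMO ligase Pias1 passed on both with opposite sides, 0.60 on slide type 2 and −0.28 on slide type 1. Without centring 1 of the 18 passed on slide type 2 (3.46% of all genes). The list was chosen with earlier results of these data known.

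Zinc finger genes under other names were set beside the family. Of C2H2 factors under other names, 4 positive and 4 negative of 30 passed on slide type 1, and 9 and 8 of 37 passed on slide type 2. Over all genes 5.73% and 5.65% passed on slide type 1, and 18.5% and 31.9% on slide type 2. The immediate early factor Egr1 had 1.74 on slide type 2 and Adnp, a chromatin factor of the nervous system, 1.16 on slide type 1 but −0.14 on slide type 2, passing on both. Klf6 had 0.73 on slide type 1. The mean of Egr1 lay above that of Zfp12 (1.37), with 2.42, 0.98 and 1.83 in treatments 1, 2 and 3. On slide type 1 Adnp and Klf6 lay above the highest member, Zfp790 (0.39). Of the C2H2 factors that passed on slide type 2, Adnp (0.33 and −0.62), Zbtb7b, Zbtb34, Zbtb20, Hivep3 and Zkscan1 had channel orders on opposite sides of 0. The others had both orders on the same side. Of zinc finger families with other folds (CCCH, DHHC, CCHC, MYND and others), 1 positive and 3 negative of 29 passed on slide type 1, and 5 and 13 of 32 on slide type 2, with medians of −0.04 and −0.13. Zcchc3, an RNA-binding protein, had the lowest of these at −0.49.

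Some Zfp symbols were left out by the rule. On slide type 2, probes that carry several symbols had −0.31 (Zfp955a with Zfp955b), −0.36 (Zfp106 with Capn3) and 0.21 (Zfp961 with 2 others). Another, at −0.32, was left out because its annotation repeats the symbol Zfp58. On slide type 1 such probes had 0.29 (Zfp866 with C85843) and −0.03 (Zfp213 with D17Ertd197e). In the limma fit of single probes all of these passed but those of Zfp961 (adjusted p = 0.0517) and Zfp213 (adjusted p = 0.839). The CCCH proteins Zfp36l1 and Zfp36l2, which bind mRNA, had −0.40 (slide type 2) and −0.11 (slide type 1). Zfp367, left out by its first letters only, had −0.04 on slide type 1 (adjusted p = 0.807) and 0.26 on slide type 2 (adjusted p = 0.00552).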

How the data were processed

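RNA of cultured mouse embryos, heat-shocked and control, was measured on 24 arrays with 2 channels. The authors deposited 1 log ratio per probe and array, used here as a score of unstated base, numerator, background correction and normalization, none of which is given in the sources used here. The median over all 7680 probes was subtracted from each array, arrays with heat-shocked RNA in channel 2 (per the labels) had their sign turned, and the 4 arrays of a treatment were averaged, each channel order counting the same. Genes are means of their probes with 1 symbol. Tests used limma 3.58.1 in R 4.3.3 (lmFit and eBayes on an intercept over 3 treatments; adjusted p by Benjamini-Hochberg at 0.05 over the slide type). Differences between slide types were fitted over the 943 shared genes. The fits were tested before use on simulated treatment values with known changes, which held no arrays, channel orders or centring. Changes of 0.2 units were found in 23.9% of cases on slide type 1 and 8.96% on slide type 2. For 0.4 units these were 70.1% and 65.7%, and for 0.8 units 95.5% and 92.4%. The simulation left most genes unchanged, 3638 of 3838 for the first slide type and 3875 of 4075 for the second. In the real fits 11.4% and 50.4% of genes passed. The adjusted p depends on how many genes change, so these rates cannot say what share of such changes the real fits found.

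Members named are the 8 largest passing on each side with the same sign in 3 treatments, those with a probe over 1 unit, those on both slide types, those with probes over 0.5 units apart, the 5 smallest means and genes listed by name. Members and lists were chosen with earlier results of these data known. Alternatives were other centring, single channel orders, arrays with or without the suffix B, 12 arrays with the treatment as block, other spreads, other ways to join probes, leaving out each treatment and the sign turned. Spot intensities were not used here, so dim and saturated spots stay in. Promoters are from RefSeq. Figures were drawn with matplotlib 3.10.9.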

Additional observations from a re-analysis of the deposited data

Results flagged for a closer look

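In 4 of the 10 Zfp genes measured on both slide types the difference between the slide types itself passed the test, which is why they are listed here. The difference (slide type 2 minus slide type 1, limma adjusted p over 943 genes) was −0.35 for Zfp281 (adjusted p = 0.00763), −0.25 for Zfp638 (adjusted p = 0.0456), 0.23 for Zfp710 (adjusted p = 0.0308) and 0.38 for Zfp296 (adjusted p = 0.0167). Over all shared genes 22.1% differed by the same test. With the treatment number as a replicate block Zfp638 did not pass (adjusted p = 0.0547), while the other 3 did. None of the 4 passed without treatment 1 (7.64% of all shared genes) or without centring (3.82%). The 3 treatments of each slide type lay apart from those of the other in each of the 4. Groups of 3 treatments were not tested for a sample that stands apart.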

How the results depend on the processing

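The number of Zfp genes that passed depended on the centring and on the channel orders in these fits. Without centring 3 positive and 0 negative members passed on slide type 1 (median 0.27) and 2 and 0 on slide type 2 (median 0.0225), where 1.87% and 1.60% of all genes passed, and the probes that passed were 3 and 0 on slide type 1 and 3 and 0 on slide type 2. Without centring the medians of all genes were 0.27 and 0.03. Centred on probes with 1 symbol, slide type 1 gave 1 negative member and a median of 0.0103, and slide type 2 gave 17 positive and 12 negative and a median of 0.0151. With heat-shocked RNA in channel 1 only, 6 positive and 1 negative member passed on slide type 1 (median 0.0120; 10.6% and 11.2% of all genes) and 2 and 0 on slide type 2 (1.08% and 0.147%). With it in channel 2 only these were 0 and 2 (median −0.15; 1.8% and 3.26%), and 1 and 0 (0.319% and 0.27%). Arrays with the suffix B alone gave 1 negative member on slide type 1 (median −0.0645; 1.95% of all genes).

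Fitted as 12 arrays with the treatment as replicate block, 7 negative members passed on slide type 1 (11.2% of all genes) and 7 positive on slide type 2 (15.9%). The correlation of arrays within a treatment in that fit was −0.0501 on slide type 1 and −0.239 on slide type 2. A correlation below 0 narrows the standard error, so that fit cannot serve as a stricter check. With the treatment number as a replicate block, 3 members differed between slide types instead of 4, Zfp638 being lost. Same-numbered treatments gave r = 0.0866, 0.245 and 0.241 across slide types, and differently numbered ones −0.267 to −0.0117. The slide means of all 943 shared genes correlated at 0.28, so these r values do not describe the treatment values themselves. No pairing was read from them. The labels do not say that a number marks the same RNA on both slide types, so the test was left unpaired. With the sign turned, 19 positive and 11 negative members passed on slide type 2, and the medians were 0.0324 and 0.0604, each single value changing its sign by construction.

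Leaving out each treatment in turn gave 0 to 2 negative members on slide type 1 (1.38% to 6.38% of all genes) and, on slide type 2, 4 to 14 positive (7.19% to 24.1%) and 11 to 22 negative ones (22.9% to 30.1%). For probes these were 2 to 3 negative on slide type 1, and 7 to 18 positive and 12 to 27 negative on slide type 2. Members that differed between slide types numbered 0 to 3. On slide type 1 the corepressors gave 0 to 1 passing genes, other C2H2 factors 5 and other zinc finger families 0 to 3. On slide type 2 other C2H2 factors gave 11 to 16 and other zinc finger families 11 to 18. Without centring the lists gave 0 corepressors and 4 other C2H2 factors on slide type 1, and 1, 1 and 0 of the 3 lists on slide type 2, and 0 members differed between slide types.

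Of the 7 passing members of slide type 1, 2 held without each treatment and 3 without centring. Of the 30 of slide type 2, 14 and 2 did, and 1, Zfp12, held under all 14 alternatives. Among passing members signs turned without centring for Zfp219 (0.0829), Zfp94 (0.0467) and Zfp943 (0.0666). With heat-shocked RNA in channel 1 only they turned on slide type 2 for Zfp207 (0.0066), Zfp57 (0.11), Zfp61 (0.00029), Zfp639 (0.025), Zfp185 (−0.0155), Zfp654 (−0.21), Zfp704 (−0.11), Zfp804a (−0.0425) and Zfp957 (−0.19), and in channel 2 only for Zfp51 (0.0050). Zfp281, which did not pass on slide type 1, passed there at 0.33 with channel 1 only. The cause of these changes was not tested. A robust prior, a common spread, and the first or the median probe of a gene kept each count of members within 1.5 times. Precision is limited by 3 treatments, and signal over background was not analysed here.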

Other observations

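Zfp410, which is known to control the gene of the nucleosome remodeller Chd4, had 0.09, 0.10 and 0.09 in the 3 treatments on slide type 2 and did not pass (adjusted p = 0.169). Chd4 had −0.19 on slide type 2 (adjusted p = 0.0211) and −0.08 on slide type 1 (adjusted p = 0.578). By channel order Zfp410 had 0.33 and −0.15. These 2 genes were chosen after their values were seen.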
